A study of Mus musculus with 6 samples.

Results

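Interferon-stimulated genes are transcribed after a cell senses interferon, and 39 of them were followed here in ESC-derived and bone marrow haematopoietic cells of the mouse. They were chosen by symbol, as genes induced by type I or type II interferon, and all 39 symbols of the list were found among the 55401 gene IDs of the count table. Low-count filtering left 16211 genes for testing, 38 of the listed genes among them, and removed Mx2. The LSK group held 3 libraries of Lin-Sca-1+c-Kit+ cells, a marrow gate rich in haematopoietic stem cells and progenitors, taken from untreated wild-type C57BL/6 mice that were 6 to 8 weeks old. ESC-derived cells gave 3 libraries of Lin-Sca-1+c-Kit- cells, labelled wild type with ESC differentiation as the treatment, from the marrow of primary recipients of a transplant of sorted CD144+ cells, CD144 being an endothelial adhesion molecule. Each library was made from 2000 sorted cells. The sources used here do not give the strain of the embryonic stem cells, the strain and age of the recipients or whether animals were pooled.

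Type I interferons signal through the receptor chains Ifnar1 and Ifnar2, the kinases Jak1 and Tyk2 and a complex that includes Stat2 and Irf9, which binds the interferon-stimulated response element. Interferon gamma, the type II interferon, signals through Ifngr1 and Ifngr2, Jak1 and Jak2, and acts on its target genes through gamma-activated sites. Type I interferon is the classical inducer of the IFIT, OAS, Mx and Isg15 genes, while immunity-related GTPases and guanylate-binding proteins respond strongly to interferon gamma, and many genes respond to both. In bone marrow, interferons are known to drive stem cells out of quiescence.

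Of the 39 genes, 12 were higher and 7 lower in ESC-derived cells, 19 were not called and Mx2 was not tested (edgeR quasi-likelihood test, adjusted p under 0.05). The called genes were 48.7% of the list, against 30.0% of all genes tested. Shares of the list are over all 39 genes, the untested Mx2 included. Higher calls made up 30.8% of the list and 14.8% of all genes tested. Lower calls made up 17.9% and 15.2%, which are near each other, so the share of lower calls is not a result about the list. Calls of at least 2-fold were 8 higher and 6 lower among the 39 genes, where such calls made up 10.4 and 13.2% of all genes tested. Counts of calls in the role groups and pathway lists below stand beside the same 14.8% higher and 15.2% lower of all genes tested. These groups are small, and none was tested as a group. The genes that rose the most were Gbp4, a guanylate-binding protein, Ifi27l2a, a small interferon-induced protein, and Igtp, an immunity-related GTPase. The genes that fell the most were Oas2, Ifi44 and Oasl2. The 9 higher calls of Bst2, Gbp4, Ifi27l2a, Ifi35, Ifi47, Ifit3, Igtp, Samhd1 and Zbp1 held in each of 15 alternatives of fit, scaling, filter or left-out library. Among the lower calls only that of Oas2 did, and lower calls numbered 2, 1 and 2 without LSK replicates 1, 2 and 3, and 4, 5 and 5 when ESC-derived replicates 1, 2 and 3 were left out. The higher calls numbered 9 to 13 over the same 6 fits, and 9 without LSK replicate 2.

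CPM, the count scaled to a common library size after TMM scaling, gives the level of a gene in each library, and log2 fold changes are ESC-derived minus LSK with their SE. Total counts ran from 41580006 to 49269286 per library, and a sequenced fragment was taken to be worth about 4 counts. Kit, the gene of the c-Kit gate, had 2081, 2171 and 2550 counts in LSK replicates 1, 2 and 3, where ESC-derived replicates had between 2 and 6, which goes with the gates of the labels. LSK replicate 2 stood apart: it was the middle LSK library at 62.2% of the genes tested, against 30.4 to 37.9% for the ESC-derived libraries in their group, and its median gap to the mean of the other two was 0.126 on the log2(CPM + 1) scale, against 0.295 and 0.297 for LSK replicates 1 and 3. The labels do not say whether these libraries share material, in which case p-values would be too small. Marker lists of other cells moved with the groups. Of 8 T cell markers 8 were higher, with a summed level of 12110 to 12990 CPM in ESC-derived and 112.9 to 144 CPM in LSK libraries. All 6 of 6 NK and cytotoxic markers were higher, at 10060 to 11990 against 542 to 588 CPM. Most of that sum was Nkg7, at 9120 to 11230 against 515.6 to 562.5 CPM. Of 6 stem and progenitor markers 6 were lower, at 0.236 to 3.57 against 1632 to 1775 CPM, Hoxa9 being at 0 in the ESC-derived libraries. Of 5 plasma cell markers 5 were lower (71.7 to 91.4 against 4203 to 4920 CPM, Tnfrsf17 at 0 in ESC-derived). Jchain, at 3949 to 4568 CPM, was most of the plasma cell sum in LSK libraries. Of 5 B cell markers 2 were lower (4.16 to 13.3 against 455 to 519.9 CPM). Of 6 neutrophil markers 4 were higher (summed level of 1802 to 3447 against 991 to 1115 CPM). Mpo (3.82 to 127 against 622.5 to 723 CPM) and Elane (4.77 to 87.8 against 94.4 to 110.8 CPM) lay lower without overlap but were not called. Of 5 monocyte markers 1, Ly6c2, was higher and 1, Cd68, lower (1275 to 1763 against 861 to 933 CPM). Ly6c2 alone stood at 913 to 1092 CPM in ESC-derived and 154 to 183 CPM in LSK libraries. Without a call, Lyz2 and Csf1r lay lower and Adgre1 higher. Of 5 plasmacytoid dendritic cell markers, Bst2 included, 1 was higher and 3 lower (221 to 244 against 312 to 321 CPM). Siglech was at 0 in ESC-derived libraries. The part of these markers in the results below was not tested. In bulk RNA, fewer cells of a type and less RNA per cell cannot be told apart.

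**Figure D1:**
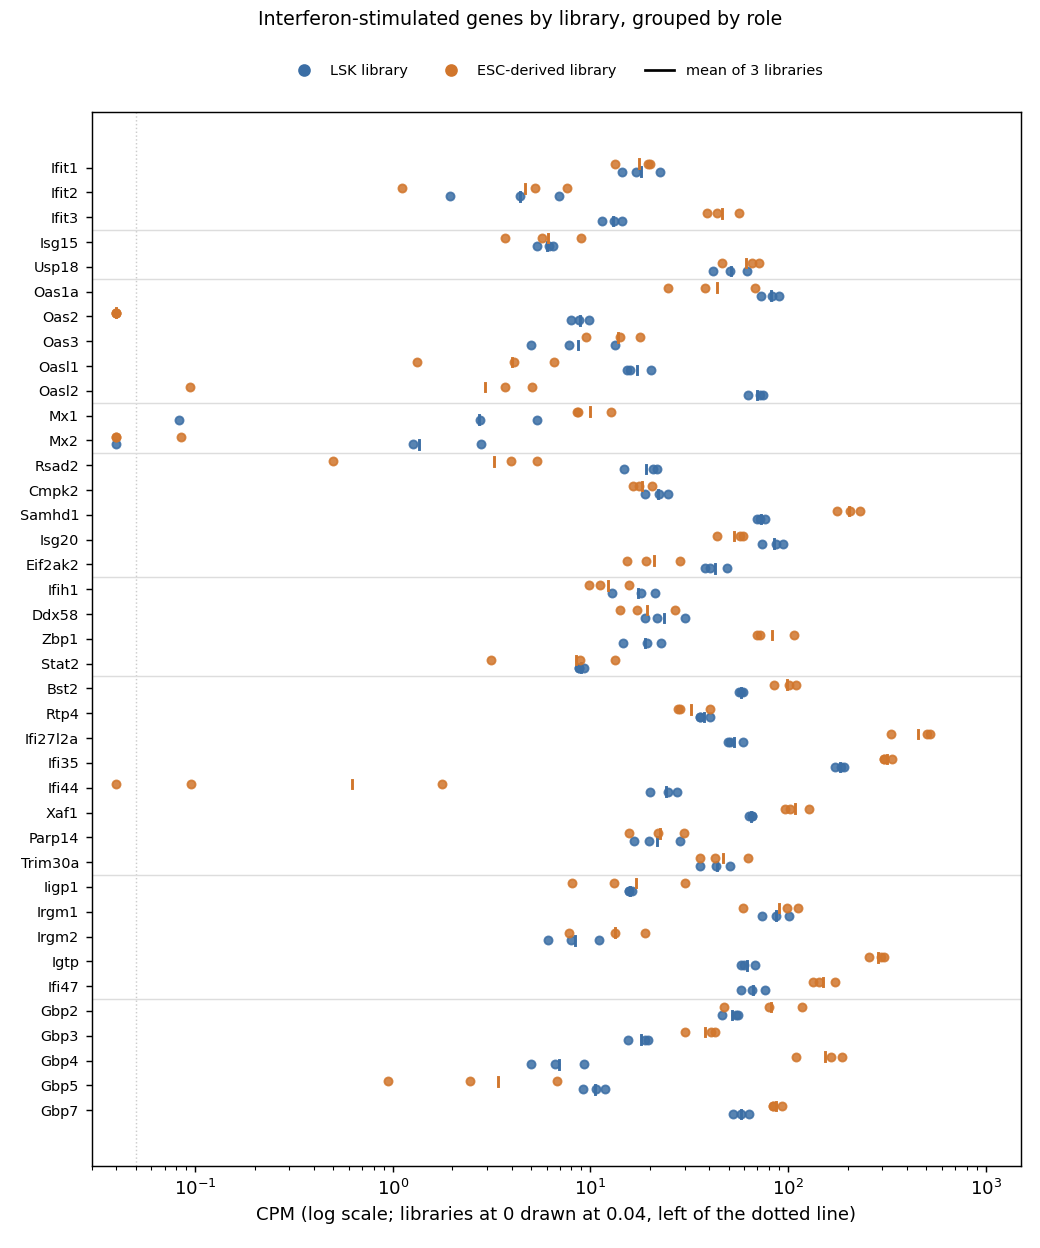
Level of the 39 interferon-stimulated genes in CPM on a log axis, with 3 LSK libraries (blue) and 3 ESC-derived libraries (orange) per gene, vertical ticks at group means and grey lines between role groups. Gbp4, Ifi27l2a and Igtp lie clearly to the right in ESC-derived cells, Oas2, Oasl2 and Ifi44 to the left, and Ifit1, Isg15 and Irgm1 overlap.

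Promoter sequences were searched for the interferon-stimulated response element and the gamma-activated site. RefSeq promoter windows (build GRCm38.p6, 250 bases before to 50 after a start, 300 bases each) matched 29 of the 39 genes by symbol, with 34 windows. Usp18, Oas2, Mx1, Mx2, Zbp1, Rtp4, Ifi27l2a, Parp14, Iigp1 and Gbp4 had no window. The core of the interferon-stimulated response element, searched on both strands as GAAA, NN and GAAA in a row, where N is any base, stood in the windows of 19 of the 29 genes, 65.5%, against 3.99% of all 27025 genes with a window. The gamma-activated site, searched as TTCNNNGAA, which reads alike on both strands, stood in 11 of 29, 37.9%, against 9.55% of all genes. By call, the response element core was found in 5 of 9 higher, 2 of 6 lower and 12 of 14 genes that were not called. The gamma-activated site was found in 5 of 9 higher, 2 of 6 lower and 4 of 14 genes that were not called. Matches of a motif can overlap each other, as in Isg15, and in Bst2 a match of each motif overlapped. These matches are descriptions of letters, not tested sites. The windows below are printed 5′ to 3′ on the gene's strand in lower case with matches of either motif in capitals. Positions are those of the first base of a match, counted from -250 to 49 over the window with 0 at the first base after the 250 upstream bases. Ifit1 and Ifit3, both on chromosome 19, are shown because both hold a pair of response element cores and Ifit3 was higher while Ifit1 was not called. Isg15 is shown as a classical type I target with no call, Igtp for a gamma-activated site just before its response element core in a gene that rose, and Rsad2 for a core in a gene that was lower. The windows are chr19:34640639-34640938 (plus strand), chr19:34583279-34583578 (plus), chr4:156200769-156201068 (minus), chr11:58199306-58199605 (plus) and chr12:26456403-26456702 (minus).
Ifit1: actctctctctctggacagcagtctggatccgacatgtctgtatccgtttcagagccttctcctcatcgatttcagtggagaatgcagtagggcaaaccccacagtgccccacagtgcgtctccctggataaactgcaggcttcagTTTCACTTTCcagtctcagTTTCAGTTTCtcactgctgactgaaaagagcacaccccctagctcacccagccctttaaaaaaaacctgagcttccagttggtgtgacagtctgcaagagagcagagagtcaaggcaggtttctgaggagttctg
Ifit3: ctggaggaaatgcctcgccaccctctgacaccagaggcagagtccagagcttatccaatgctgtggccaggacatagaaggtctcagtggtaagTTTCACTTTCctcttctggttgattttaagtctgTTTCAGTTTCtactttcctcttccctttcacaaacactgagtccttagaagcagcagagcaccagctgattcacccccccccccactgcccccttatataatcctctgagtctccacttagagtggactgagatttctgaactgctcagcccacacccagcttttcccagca
Isg15: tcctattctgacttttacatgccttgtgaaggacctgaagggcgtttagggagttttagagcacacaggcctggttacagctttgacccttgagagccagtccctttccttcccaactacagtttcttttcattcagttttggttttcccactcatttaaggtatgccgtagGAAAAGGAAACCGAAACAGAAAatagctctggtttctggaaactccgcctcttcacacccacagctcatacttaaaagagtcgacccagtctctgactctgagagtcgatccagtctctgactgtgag
Igtp: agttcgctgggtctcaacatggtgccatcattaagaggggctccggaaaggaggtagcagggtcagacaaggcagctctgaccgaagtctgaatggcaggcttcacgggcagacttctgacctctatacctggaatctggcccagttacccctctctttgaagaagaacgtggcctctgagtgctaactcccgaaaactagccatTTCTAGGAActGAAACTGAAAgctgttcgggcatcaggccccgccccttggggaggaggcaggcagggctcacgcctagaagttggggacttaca
Rsad2: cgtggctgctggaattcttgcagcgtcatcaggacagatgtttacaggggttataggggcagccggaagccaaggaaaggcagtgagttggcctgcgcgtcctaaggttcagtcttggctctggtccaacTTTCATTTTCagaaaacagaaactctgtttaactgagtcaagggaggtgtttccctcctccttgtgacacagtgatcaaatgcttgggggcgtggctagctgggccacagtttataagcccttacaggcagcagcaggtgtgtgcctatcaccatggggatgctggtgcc
In Ifit1 the 2 cores begin at positions -104 and -85, and in Ifit3 at -156 and -122, all on the reverse strand. In Igtp the gamma-activated site TTCTAGGAA begins at -45 and the core GAAACTGAAA at -34. The core of Isg15 nearest its start, GAAACAGAAA, begins at -66, and that of Rsad2, on the reverse strand, at -120.

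Guanylate-binding proteins, large GTPases that coat vacuoles of pathogens, gave 3 higher and 0 lower calls among 5 listed genes. Gbp4 (ENSMUSG00000079363, mm10 chromosome 5, 105115767 to 105139586, minus strand) stood at 5.03, 6.59 and 9.25 CPM in LSK replicates 1, 2 and 3 and at 165, 109.8 and 187 CPM in ESC-derived replicates 1, 2 and 3. The groups did not overlap, and the lowest ESC-derived library was far above every LSK library. Its log2 fold change was 4.47 ± 0.33 (edgeR adjusted p = 0.000184), a ratio of mean CPM of 22.1. Its annotated span overlaps Gbp8 and Gbp9 on the same strand, and reads of these paralogues can be split between them. Gbp3 (chromosome 3, 142560026 to 142573209, plus strand) stood at 19, 19.5 and 15.5 CPM in LSK and 30.2, 40.9 and 42.9 CPM in ESC-derived libraries. All ESC-derived libraries exceeded all LSK libraries, and it rose by 1.08 ± 0.22 (edgeR adjusted p = 0.0117), a call that was lost without LSK replicate 2 (edgeR adjusted p = 0.0563). Gbp7 (chromosome 3, 142530342 to 142550149, plus strand) stood at 52.9, 57.5 and 63.4 CPM in LSK and 84.2, 83.9 and 93 CPM in ESC-derived libraries. Again the groups did not overlap, and the change was 0.59 ± 0.14 (edgeR adjusted p = 0.0179). It was lost without LSK replicates 1 and 2 (edgeR adjusted p = 0.0624 and 0.0995) and with library totals only (edgeR adjusted p = 0.116). Gbp2 and Gbp5 were not called. Gbp2 ranged from 46.2 to 55.9 CPM in LSK and from 47.4 to 118 CPM in ESC-derived cells, and was called higher without ESC-derived replicate 1 (0.92, edgeR adjusted p = 0.0282). Gbp5, which in mice and humans promotes inflammasome activity, ranged from 9.13 to 11.9 CPM in LSK and from 0.945 to 6.78 CPM in ESC-derived cells, with no overlap. Its fitted change was -1.64 ± 0.71 (edgeR adjusted p = 0.136), and it was called lower without ESC-derived replicate 3 (-2.64, edgeR adjusted p = 0.0231) and with limma-voom (-2.03, adjusted p = 0.0363).

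The guanylate-binding protein genes lie in clusters on chromosomes 3 and 5, and were followed in both. Of 6 chromosome 5 genes followed, 5 were higher and 0 lower, and of 4 chromosome 3 genes tested, 2 were higher and 0 lower. The chromosome 5 genes that rose did so by 2.29 to 4.47 on the log2 scale and those of chromosome 3 by 0.59 and 1.08. Gbp8, chosen by the rule for paralogues, stood at 3.34, 3.44 and 2.33 CPM in LSK and 65.8, 61.9 and 68 CPM in ESC-derived libraries. The groups were widely separated (4.42 ± 0.24, edgeR adjusted p = 4.56e-05). Gbp9, the other paralogue of that rule, changed by 3.51 ± 0.27 (edgeR adjusted p = 0.000204), from 2.56 to 3.66 CPM in LSK to 31.4 to 39.5 CPM in ESC-derived libraries. Gbp10 and Gbp6, named after their values were seen, rose by 3.43 ± 0.32 and 2.29 ± 0.29 (edgeR adjusted p = 0.000449 and 0.00167). The exception on chromosome 5 was Gbp11, at 1.07 to 3.53 CPM in LSK and 0 to 3.97 CPM in ESC-derived libraries (-0.44 ± 1.66, edgeR adjusted p = 0.874). The difference between the clusters was not tested.

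Immunity-related GTPases, which act on vacuoles of intracellular pathogens, gave 2 higher and 0 lower calls among 5 listed genes. Igtp (ENSMUSG00000078853, chromosome 11, 58199556 to 58207591, plus strand), whose promoter is printed above, stood at 68.2, 59.8 and 58.1 CPM in LSK and at 295, 257 and 307.5 CPM in ESC-derived libraries. The replicates were tight and the groups far apart, with a change of 2.21 ± 0.13 (edgeR adjusted p = 6.45e-05) and a ratio of means of 4.62. Ifi47 (chromosome 11, 49076587 to 49096974, plus strand) stood at 57.5, 65.7 and 76.9 CPM in LSK and 134, 143 and 174 CPM in ESC-derived libraries. It rose by 1.17 ± 0.17 (edgeR adjusted p = 0.00271) with no overlap of the groups. Its span overlaps Olfr56 on the same strand and the pseudogene Gm12188 on the other. Counting is not stated to use strand, so reads of such neighbours cannot be told apart, which also holds for Usp18 with Gm44148, Oasl1 with Gm13822 and Ifi35 with Gm11626. Over all libraries Gm12188 was given 481 counts and Olfr56 12, beside 29254 for Ifi47. Gm44148 had 665 beside 15351 for Usp18, Gm13822 319 beside 2939 for Oasl1, and Gm11626 267 beside 67410 for Ifi35. Irgm1, Irgm2 and Iigp1 were not called. Irgm1, a regulator of the other GTPases of this family, ranged from 73.7 to 100.7 CPM in LSK and from 58.9 to 112 CPM in ESC-derived cells (0.04 ± 0.26). Irgm2 ranged from 6.13 to 11.1 and from 7.83 to 18.8 CPM, and its span overlaps that of Igtp on the same strand, so reads may be split. Iigp1 was even in the LSK libraries, at 15.6 to 16.2 CPM, and spread in the ESC-derived libraries, at 8.04, 13.2 and 30.1 CPM.

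**Figure D2:**
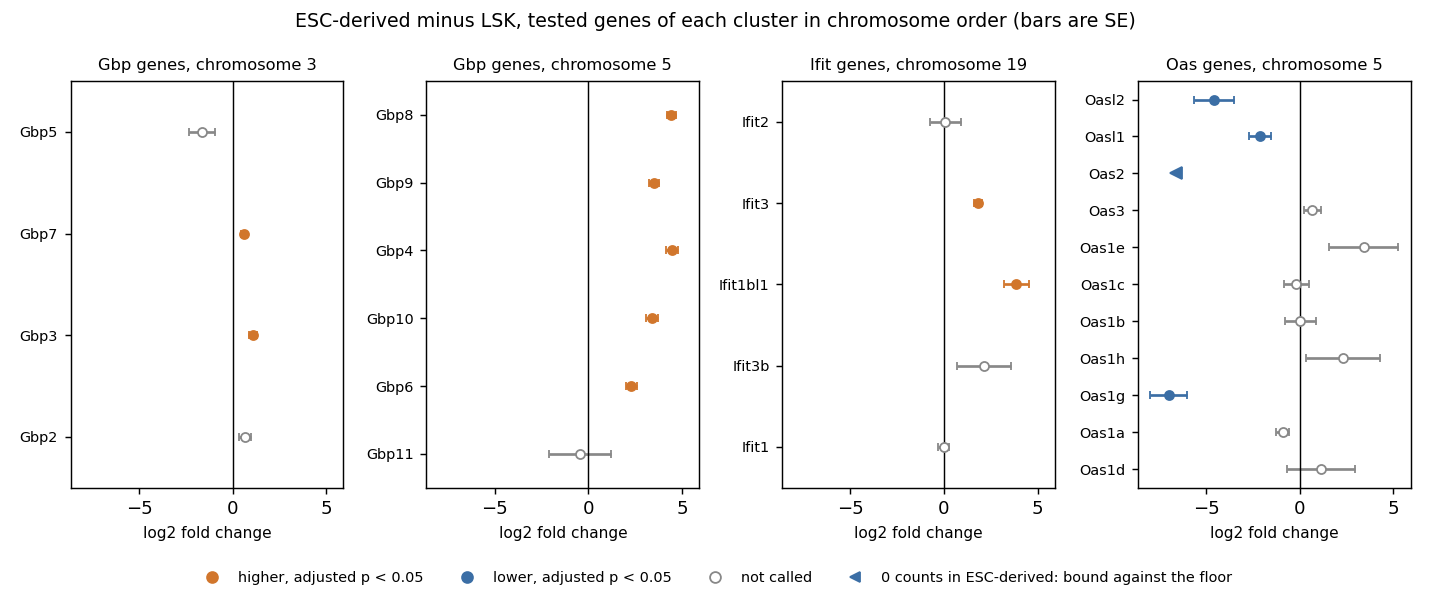
Log2 fold change (ESC-derived minus LSK, edgeR, bars are SE) of tested Gbp, Ifit and Oas genes in chromosome order, filled where called, open where not, with a triangle for the bound of a gene at 0 in ESC-derived cells. On chromosome 5, 5 Gbp genes lie between 2.29 and 4.47. Of 11 Oas genes drawn, Oasl2, Oasl1, Oas2 and Oas1g are called and lie below 0, and the others are not called.

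The OAS family makes short adenylate chains that activate an RNA-cutting enzyme, and in mice Oasl2 keeps this activity while Oasl1 lacks it. Of 5 listed genes 3 were lower and 0 higher. Oas2 (ENSMUSG00000032690, chromosome 5, 120730333 to 120749853, minus strand) stood at 8.76, 8.01 and 9.80 CPM in the LSK libraries, or 425, 366 and 450 counts, while each ESC-derived library had 0 counts. Set against a floor of 12 counts per group, taken as 3 fragments, its ESC-derived level was at least 97.2-fold lower (edgeR adjusted p = 0.00121). Oasl2 (chromosome 5, 114896936 to 114912234, plus strand) stood at 74.8, 72.4 and 62.5 CPM in LSK and 5.04, 0.0945 and 3.70 CPM in ESC-derived libraries. The LSK libraries were close to each other and the ESC-derived ones were not, replicate 2 being near 0. The change was -4.57 ± 1.06 (edgeR adjusted p = 0.0184), lost without LSK replicates 1 and 2 and ESC-derived replicate 3 (edgeR adjusted p = 0.0509, 0.0557 and 0.0566). Oasl1 (chromosome 5, 114923240 to 114937915, plus strand), which represses translation of Irf7 in mice, stood at 15.8, 15.3 and 20.4 CPM in LSK and 4.12, 1.32 and 6.55 CPM in ESC-derived libraries. Its groups did not overlap, and it fell by 2.10 ± 0.58 on the log2 scale (edgeR adjusted p = 0.0347). Without LSK replicates 1, 2 and 3 and ESC-derived replicate 1 the call was lost (edgeR adjusted p = 0.0783, 0.0873, 0.0997 and 0.0833). Oas1a, the OAS gene with the highest mean, stood at 89.5, 82.7 and 72.9 CPM in LSK and 37.9, 68.4 and 24.6 CPM in ESC-derived libraries. It was not called (-0.91 ± 0.36, edgeR adjusted p = 0.106) although the groups did not overlap, and was called lower with the DESeq2 Wald test (adjusted p = 0.0284), limma-voom (adjusted p = 0.0357), library totals only (edgeR adjusted p = 0.0429) and without ESC-derived replicate 2 (edgeR adjusted p = 0.0143). Its paralogue Oas1g stood at 29.6, 23.4 and 26.2 CPM in LSK and 0.357, 0 and 0.254 CPM in ESC-derived libraries. It fell by 6.999 ± 0.99 on the log2 scale (edgeR adjusted p = 0.00279), and reads of Oas1a and Oas1g can be split between the copies. Oas3 was not called and pointed the other way, at 4.99 to 13.3 CPM in LSK and 9.51 to 17.8 CPM in ESC-derived libraries (0.67 ± 0.45). With paralogues, 11 Oas genes were tested, 0 were higher and 4 lower. Not called were Oas1e (3.42 ± 1.84), Oas1h (2.33 ± 1.98), Oas1d (1.14 ± 1.84), Oas1b (0.03 ± 0.82) and Oas1c (-0.17 ± 0.65). The first 3 of these were low, with means of 0.117 to 0.306 CPM in LSK and 0.582 to 1.55 CPM in ESC-derived cells.

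Some IFIT proteins bind foreign RNA at its 5′ end, and 1 of the 3 listed IFIT genes was higher. Ifit3 (ENSMUSG00000074896, chromosome 19, 34583531 to 34588731, plus strand) stood at 13.2, 11.4 and 14.4 CPM in LSK and 56.2, 38.8 and 43.7 CPM in ESC-derived libraries. The groups did not overlap and the change was 1.83 ± 0.22 (edgeR adjusted p = 0.00151). Ifit1, whose window also holds 2 response element cores, ranged from 14.4 to 22.4 CPM in LSK and from 13.3 to 20.02 CPM in ESC-derived cells and was not called (-0.02 ± 0.29). Ifit2 ranged from 1.96 to 6.92 and from 1.12 to 7.63 CPM, the spread within each group being larger than the difference of the means. Among their paralogues Ifit1bl1, named after its values were seen, rose by 3.87 ± 0.68 (edgeR adjusted p = 0.00664), from 0.825 to 2.66 CPM in LSK to 12.1 to 36.9 CPM in ESC-derived cells. Ifit3b, a close copy of Ifit3 that can share its reads, ranged from 0 to 2.12 and from 3.35 to 8.14 CPM and was not called (2.16 ± 1.45). Isg15, a ubiquitin-like modifier, and Usp18, the protease that removes it and damps interferon receptor signalling, were not called. Isg15 ranged from 5.38 to 6.50 CPM in LSK and from 3.71 to 8.998 CPM in ESC-derived cells. Usp18, the higher of the pair, stood at 62.1, 50.7 and 41.9 CPM in LSK and at 46.5, 65.6 and 71.2 CPM in ESC-derived libraries (0.25 ± 0.23).

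The Mx proteins are antiviral GTPases, and Mx1 is disrupted in C57BL/6 and many other laboratory strains. Mx1 stood at 0.0825, 2.76 and 5.38 CPM in LSK replicates 1, 2 and 3 and at 12.7, 8.55 and 8.66 CPM in ESC-derived libraries. Every ESC-derived library exceeded every LSK library, but the LSK libraries differed by 65.2 times among themselves and the gene was not called (1.86 ± 1.13, edgeR adjusted p = 0.278). Mx2 had 0, 58 and 129 counts in LSK replicates 1, 2 and 3 and 0, 0 and 4 in the ESC-derived libraries. The groups overlap at 0, and the ratio of summed levels, LSK over ESC-derived, was 44 with a 95% counting interval of 16.9 to 163, which is too narrow where a fragment is worth 4 counts. Both Mx genes were thus lowest in LSK replicate 1, intermediate in replicate 2 and highest in replicate 3.

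**Figure D3:**
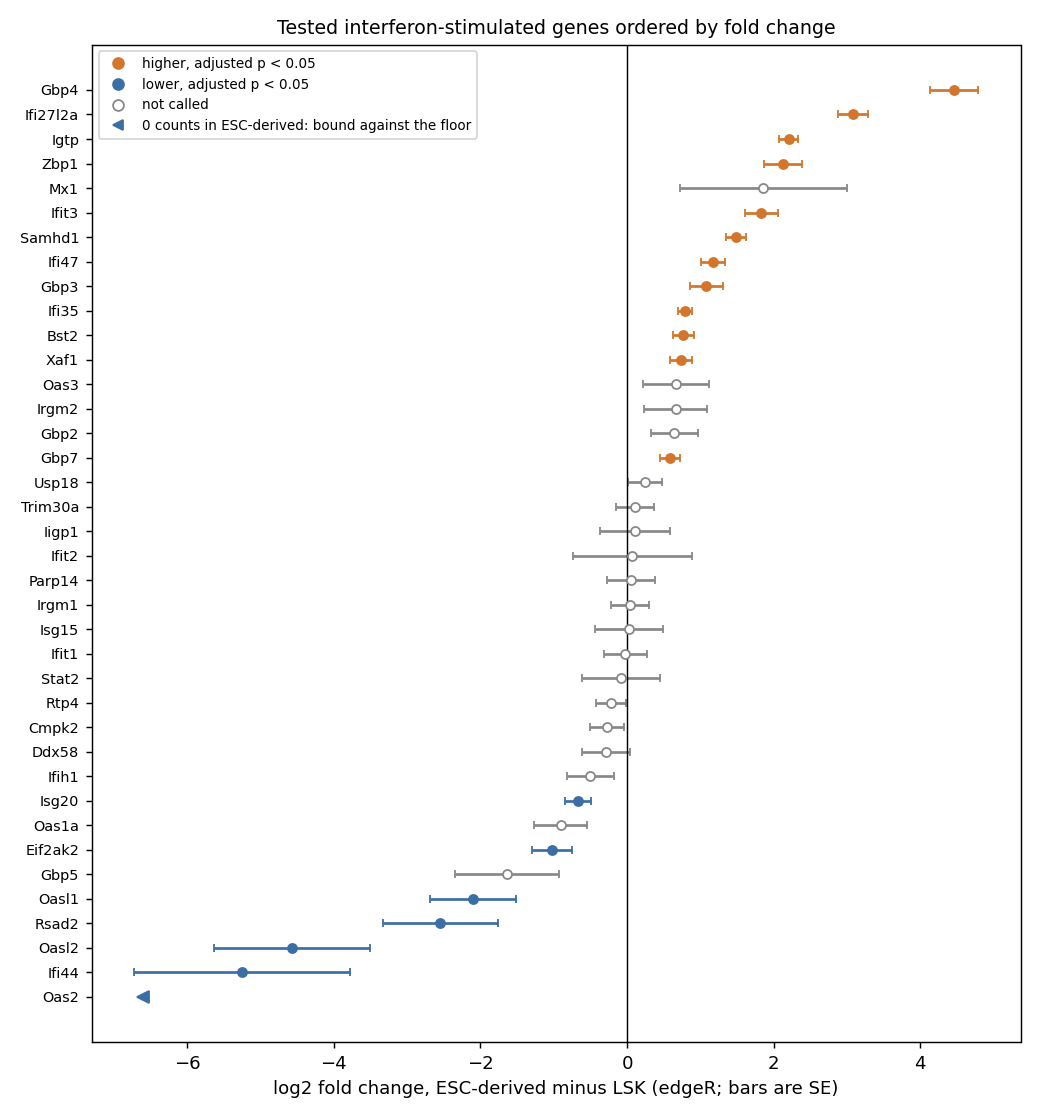
Log2 fold change (ESC-derived minus LSK, edgeR, bars are SE) of the 38 tested interferon-stimulated genes, ordered from highest to lowest, coloured where adjusted p was under 0.05, with Oas2 drawn at its bound. The 12 higher genes run from 0.59 for Gbp7 to 4.47 for Gbp4, and the genes that were not called run from -1.64 for Gbp5 to 1.86 for Mx1.

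Enzymes that act on nucleotides and RNA split, with 1 higher and 3 lower calls among 5. Samhd1 (ENSMUSG00000027639, chromosome 2, 157097533 to 157135265, minus strand), which degrades deoxynucleotides and restricts retroviruses, stood at 76.2, 72.03 and 69.9 CPM in LSK and 176, 205 and 231 CPM in ESC-derived libraries. The groups were well apart and it rose by 1.49 ± 0.13 (edgeR adjusted p = 0.000423). Isg20, an exonuclease, stood at 73.6, 87 and 94.2 CPM in LSK and 59.3, 57.3 and 43.6 CPM in ESC-derived libraries, with no overlap (-0.67 ± 0.18, edgeR adjusted p = 0.0301). Without LSK replicates 2 and 3 or ESC-derived replicates 2 and 3 this was lost (edgeR adjusted p = 0.101, 0.0856, 0.0594 and 0.0578). Eif2ak2, the RNA-activated kinase PKR that halts translation, stood at 38.1, 40.4 and 49.4 CPM in LSK and 19.2, 15.4 and 28.4 CPM in ESC-derived libraries. The groups did not overlap (-1.02 ± 0.27, edgeR adjusted p = 0.0302), and the call was lost without LSK replicates 1, 2 and 3 or ESC-derived replicates 1 and 2 (edgeR adjusted p = 0.0624, 0.0888, 0.0982, 0.0781 and 0.0695). Rsad2, or viperin, which makes a chain-terminating nucleotide, stood at 21.7, 20.8 and 14.8 CPM in LSK and 0.4995, 3.94 and 5.34 CPM in ESC-derived libraries. ESC-derived replicate 1 was the lowest by far, and the change of -2.55 ± 0.79 was just past the threshold (edgeR adjusted p = 0.0495). It was lost without LSK replicates 1, 2 and 3 or ESC-derived replicates 2 and 3 (edgeR adjusted p = 0.121, 0.128, 0.0889, 0.107 and 0.0584) and with no low-count filter (edgeR adjusted p = 0.053). Cmpk2, a nucleotide kinase and the head-to-head neighbour of Rsad2, was not called, at 18.9 to 24.7 CPM in LSK and 16.5 to 20.5 CPM in ESC-derived cells (-0.27 ± 0.23).

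Among 4 sensors and signalling genes 1 was higher and 0 lower. Zbp1 (ENSMUSG00000027514, chromosome 2, 173206612 to 173218923, minus strand), a sensor of Z-form nucleic acid that triggers necroptosis, stood at 22.7, 19.4 and 14.6 CPM in LSK and 107, 69.5 and 71.9 CPM in ESC-derived libraries. It rose by 2.13 ± 0.26 (edgeR adjusted p = 0.00151), a ratio of means of 4.38, with no overlap of the groups. The cytosolic RNA sensors Ifih1 (MDA5) and Ddx58 (RIG-I) were not called. Ifih1 ranged from 12.8 to 21.3 CPM in LSK and from 9.85 to 15.8 CPM in ESC-derived cells (-0.50 ± 0.32), and Ddx58 from 18.8 to 30.1 and from 14.1 to 26.8 CPM (-0.28 ± 0.33). Stat2, the factor specific to type I and III interferon signalling, was even in the LSK libraries, at 8.78 to 9.32 CPM, and spread over 3.14, 13.3 and 8.89 CPM in ESC-derived replicates 1, 2 and 3 (-0.08 ± 0.53).

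Of 8 membrane and other effectors 4 were higher and 1 lower. Ifi27l2a (ENSMUSG00000079017, chromosome 12, 103442167 to 103443680, minus strand), a small mitochondrial or membrane protein, stood at 49.8, 50.7 and 59.03 CPM in LSK and 504, 523 and 330.3 CPM in ESC-derived libraries. ESC-derived replicate 3 was the lowest of its group and still far above every LSK library (3.09 ± 0.21, edgeR adjusted p = 0.000125). Ifi35, a partner of the Nmi protein, stood at 184, 173 and 193 CPM in LSK and 307, 337 and 307 CPM in ESC-derived libraries. The rise was 0.79 ± 0.10 (edgeR adjusted p = 0.00165), with narrow groups that did not overlap. Bst2, or tetherin, which holds budding virus at the cell surface, stood at 56.7, 59.5 and 57.9 CPM in LSK and at 109.8, 84.8 and 101 CPM in ESC-derived libraries. It rose by 0.77 ± 0.14 (edgeR adjusted p = 0.00795) with no overlap. Xaf1, a pro-apoptotic partner of XIAP, rose by 0.74 ± 0.15 (edgeR adjusted p = 0.0101), from 63.8 to 65.9 CPM in LSK to 96.2 to 127 CPM in ESC-derived cells, and without LSK replicate 2 this was lost (edgeR adjusted p = 0.0599). Ifi44 (ENSMUSG00000028037, chromosome 3, 151730922 to 151749960, minus strand), a cytoplasmic protein of little known function, stood at 27.5, 24.7 and 20 CPM in LSK and 0.0951, 0 and 1.77 CPM in ESC-derived libraries. Nearly all its ESC-derived counts, 84 against 4 and 0, were in replicate 3. It fell by 5.25 ± 1.47 on the log2 scale (edgeR adjusted p = 0.0359), and without ESC-derived replicate 3 the fitted value was -8.90 (edgeR adjusted p = 0.00269). The call was lost without LSK replicates 1, 2 and 3 and ESC-derived replicate 1 (edgeR adjusted p = 0.0903, 0.093, 0.0771 and 0.075). Rtp4, Parp14 and Trim30a were not called. Rtp4 ranged from 35.8 to 40.3 CPM in LSK and 27.8 to 40.05 CPM in ESC-derived cells, Parp14, an ADP-ribosyltransferase, from 16.6 to 28.5 and from 15.7 to 29.8 CPM, and Trim30a from 36 to 51.04 and from 35.7 to 62.5 CPM.

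Across the list as a whole, 22 of 39 genes had CPM ranges that did not overlap between the groups, 56.4% against 49.8% of all genes tested, 13 of them higher and 9 lower in ESC-derived cells. The 38 tested genes of the list had a median log2 fold change of 0.09, beside -0.07 for all genes tested, and the median size of the change regardless of sign was 0.75 beside 0.84. With library totals in place of TMM, calls over all genes came to 1756 higher and 3057 lower, against 2395 and 2466. The summed level of the 39 genes was 1437, 1445 and 1515 CPM in LSK and 2585, 2639 and 2674 CPM in ESC-derived libraries. Ifi27l2a gave 3.47, 3.51 and 3.90% of that sum in LSK and 19.5, 19.8 and 12.4% in ESC-derived libraries, and without it the sums were 1387, 1394 and 1456 against 2081, 2116 and 2344 CPM. The sums thus lay apart with and without Ifi27l2a, the largest contributor in each ESC-derived library but not in the LSK libraries.

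Per kilobase of merged exons, the list was led in both groups by the same pair. Ifi27l2a had a mean level of 115 CPM per kb in LSK and 977 CPM per kb in ESC-derived cells, and Ifi35 106 and 184 CPM per kb. Bst2 was the third in LSK cells, at 64.2 CPM per kb, and Igtp the third in ESC-derived cells, at 142 CPM per kb. Gbp4 moved from rank 37 of 39 in LSK, at 0.929 CPM per kb, to rank 14 in ESC-derived cells, at 20.5 CPM per kb. Oasl2 moved from rank 13, at 11 CPM per kb, to rank 36, at 0.462 CPM per kb.

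Replicates varied among themselves, and more in the ESC-derived group. The median coefficient of variation of the tested genes of the list was 13.2% in LSK and 25.8% in ESC-derived libraries, beside 21.6 and 35.4% over all genes tested. ESC-derived replicate 3 was the highest of its group for 20 of 37 listed genes with counts, 54.1% against 33.6% over all genes, and the lowest for 5. Gbp2 at 118 CPM, Iigp1 at 30.1 CPM and Isg15 at 8.998 CPM were among the genes highest there. In LSK cells, replicate 2 was the middle library for 26 of 38 listed genes, 68.4% against 62.2% over all genes, and replicate 3 the highest for 20 of 38, 52.6% against 40.9%.

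Genes that make, receive and control the interferon signal were followed as background, 71 in all. Of these, 54 were tested, 14 were higher and 4 lower. The 18 called genes were 33.3% of those tested, near the 30.0% of all genes tested, so the share called in either direction is not a result about the list. By direction, 14 of 54 were higher and 4 of 54 lower, where 14.8% of all genes tested were higher and 15.2% lower. This split by direction was not tested. Among 10 ligands, Ifng, the type II interferon made by T and NK cells, stood at 2.76, 3.31 and 4.57 CPM in LSK and 663, 514 and 536 CPM in ESC-derived libraries. It rose by 7.33 ± 0.26 (edgeR adjusted p = 1.08e-05), and the T and NK markers given above rose with it. The 8 genes Ifnb1, Ifnk, Ifne, Ifnl2, Ifnl3, Ifna1, Ifna4 and Ifna5 had 0 counts in every library, which allows a level of up to 0.0856 CPM over the LSK group and 0.0911 CPM over the ESC-derived group at 12 counts. Ifna2 had 45 and 26 counts in LSK replicates 1 and 2 and 0 in the other libraries.

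Of 9 receptor and kinase genes 3 were higher and 1 lower. Ifngr1, the ligand-binding chain of the interferon gamma receptor, stood at 65.5, 82.5 and 77.1 CPM in LSK and 391, 433 and 453 CPM in ESC-derived libraries (2.50 ± 0.13, edgeR adjusted p = 4.35e-05). Ifngr2, its signalling chain, moved the opposite way, at 20.1, 19.7 and 13.4 CPM in LSK and 3.43, 2.31 and 0.211 CPM in ESC-derived libraries. The groups of each chain did not overlap. Ifngr2 fell by 3.16 ± 0.90 on the log2 scale (edgeR adjusted p = 0.0372), and without LSK replicates 1, 2 and 3 and ESC-derived replicate 2 the call was lost (edgeR adjusted p = 0.0916, 0.0996, 0.0693 and 0.0939). Il10rb, a chain shared by interleukin-10 and type III interferon receptors, rose by 1.32 ± 0.19 (edgeR adjusted p = 0.00288), from 48.9 to 63 CPM in LSK to 118 to 167 CPM in ESC-derived cells. The third higher gene was Jak1, named after its values were seen (0.57 ± 0.14, edgeR adjusted p = 0.0218), a call lost without LSK replicate 2 (edgeR adjusted p = 0.0748), without ESC-derived replicates 1, 2 and 3 (edgeR adjusted p = 0.0528, 0.0508 and 0.0565) and with library totals only (edgeR adjusted p = 0.114). The type I receptor chains were not called. Ifnar1 ranged from 24.4 to 29 CPM in LSK and from 30.4 to 56.1 CPM in ESC-derived cells (0.67 ± 0.26, edgeR adjusted p = 0.0992), and without ESC-derived replicate 2 it was called higher (edgeR adjusted p = 0.0469). Ifnar2 ranged from 85.7 to 94.2 and from 75.7 to 92.3 CPM.

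**Figure D4:**
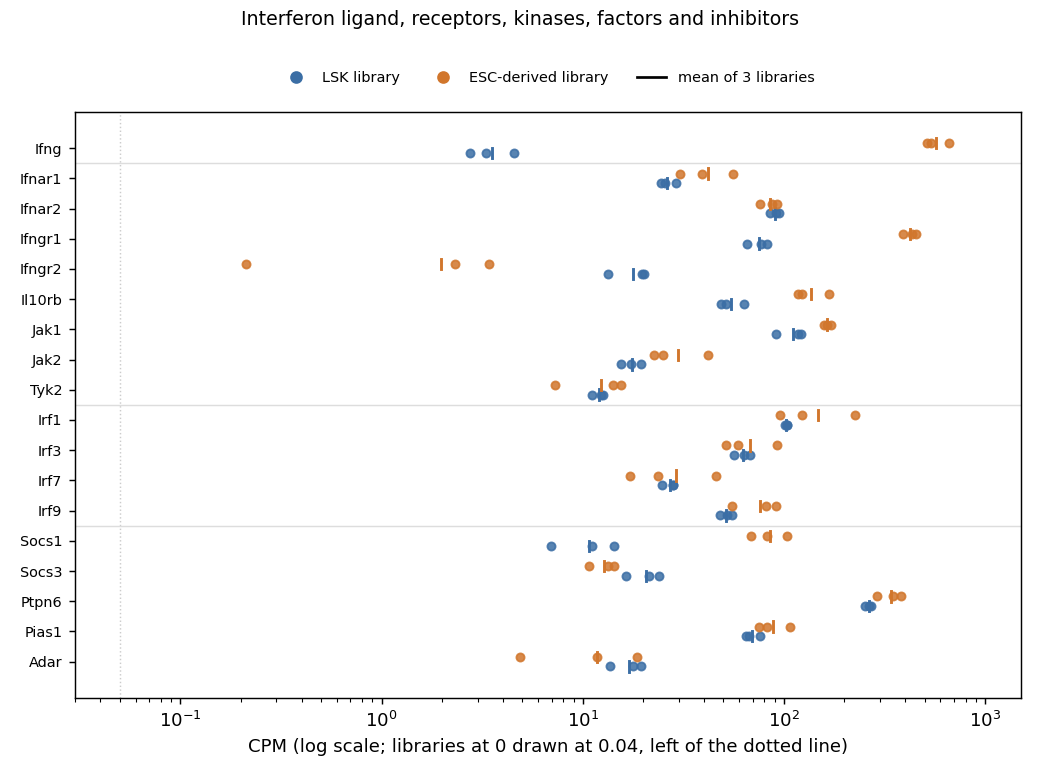
Level of interferon gamma, receptor chains, kinases, transcription factors and inhibitors in CPM on a log axis, with 3 LSK (blue) and 3 ESC-derived (orange) libraries per gene and vertical ticks at group means. Ifng, Ifngr1 and Socs1 are higher and Ifngr2 lower in ESC-derived cells, while Ifnar2 and Tyk2 overlap.

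Among the transcription factors, Irf9, a partner of Stat2, ranged from 48.3 to 55 CPM in LSK and from 55.04 to 91 CPM in ESC-derived cells (0.55 ± 0.21, edgeR adjusted p = 0.0947), and was called higher without ESC-derived replicate 1 (edgeR adjusted p = 0.017). Irf7, the amplifier of type I interferon production, overlapped between groups (24.7 to 28.2 and 17.3 to 46.1 CPM). Of 5 inhibitors, Socs1, a blocker of Jak kinases, was called higher and none lower. It stood at 6.93, 11.2 and 14.3 CPM in LSK and 68.4, 82.6 and 104 CPM in ESC-derived libraries, a change of 2.98 ± 0.32 (edgeR adjusted p = 0.000907).

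Of 13 other sensors and adaptors, 12 were tested, 2 were higher and 2 lower. Over all genes tested 14.8% were higher and 15.2% lower, which is near these shares, so the counts are not a result about this list. Ikbke, a kinase that activates interferon regulatory factors, stood at 10.1, 12.6 and 10.04 CPM in LSK and 24.9, 29.6 and 24.1 CPM in ESC-derived libraries (1.27 ± 0.24, edgeR adjusted p = 0.00788). Myd88, the adaptor of Toll-like receptors, rose by 1.13 ± 0.21 (edgeR adjusted p = 0.0079), from 49.3 to 51.3 CPM in LSK to 89.3 to 145 CPM in ESC-derived cells. Tlr3, a receptor of double-stranded RNA, stood at 1.98, 1.82 and 1.35 CPM in LSK while ESC-derived cells had 0 counts, which with the same floor makes it at least 18.9-fold lower (edgeR adjusted p = 0.00752). Trim25, a ubiquitin ligase that activates Ddx58, stood at 45.8, 41.2 and 27.9 CPM in LSK and 20.1, 18.1 and 24.7 CPM in ESC-derived libraries. It fell by 0.87 ± 0.25 on the log2 scale (edgeR adjusted p = 0.0411), and this was lost without LSK replicates 1 and 2 or ESC-derived replicates 1 and 2 (edgeR adjusted p = 0.134, 0.148, 0.0921 and 0.11) and with no low-count filter (edgeR adjusted p = 0.0524). Of 29 other paralogues of the listed genes, 23 were tested, 6 were higher and 1, Oas1g, was lower. Besides the Gbp genes and Ifit1bl1 named above, the remaining higher paralogue was Ifi27, named after its values were seen, at 323 to 376 CPM in LSK and 576 to 682 CPM in ESC-derived cells (0.82 ± 0.11, edgeR adjusted p = 0.00225).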

How the data were processed

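Gene expression was measured in 6 libraries, 3 per group, as SMART-Seq v4 cDNA and Nextera XT libraries sequenced on an Illumina instrument, per the labels' protocols. HISAT, StringTie and mm10 are named in the submitters' processing notes; versions, settings and annotation: not given in the sources used here. For each Ensembl gene ID the authors deposited an estimated count, a whole number that was not normalized. Of the values from 1 to 20, 40.1 to 47.2% per library were divisible by 4, so a fragment was taken as 4 counts, although most such values were not multiples of 4. The floor for a group at 0 was set on that choice at 12 counts (3 fragments). Like the 95% interval, this floor covers counting error only. The header holds the 6 column names in a single field and columns were assigned by their order there. Of 55401 IDs 55141 matched GENCODE M21 (GRCm38, as mm10), which gave symbols, positions and exon lengths.

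The counts passed filterByExpr and TMM scaling, and edgeR 4.0.16 (R 4.3.3) gave a robust quasi-likelihood test (two-sided, Benjamini-Hochberg over all 16211 genes, threshold 0.05), with group as the only term. The SE was taken from the fold change and F. The labels do not say that replicates came from separate animals, so p-values measure the spread between these samples, which may be technical. The listed genes, pathway lists, markers and tests were chosen with earlier results of these data known. Within each role group the text gives every library for up to 3 called genes per direction by adjusted p and for the highest mean, and for each pathway list up to 2 called genes per direction. Alternatives were RLE and upper quartile scaling, library totals, no or a stricter filter (50 counts in 3 libraries), DESeq2 1.42.0, limma-voom (limma 3.58.1), values divided by 4, a replicate block and leaving out each library in turn. Where a library is left out, its group has 2 samples. Pathway genes without a call were named after their values were seen. The older symbol Mb21d1 was matched to Cgas. A gene of the pathway lists is counted there but not reported here.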

Additional observations from a re-analysis of the deposited data

How the results depend on the processing

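Of the 12 higher calls 9, of the 7 lower calls 1 and of the 19 genes without a call 16 kept their side of the threshold in all 15 alternatives. With RLE or upper quartile scaling, the stricter filter and values divided by 4 the same 19 genes were called. Leaving out a library gave 9 to 13 higher and 1 to 5 lower listed genes, 15 to 18 pathway genes, and 1466 to 2163 higher and 1250 to 2440 lower genes of all tested, against 2395 and 2466. The cause of these losses was not tested, and such a fit has fewer samples. Library totals only moved the median of all genes from -0.07 to -0.31 and the calls over all genes to 1756 higher and 3057 lower. The median of the listed genes was then -0.13, and it was -0.01 without LSK replicate 1 and -0.12 without ESC-derived replicate 3, against 0.09, and higher at 0.20 without LSK replicate 3 and at 0.31 and 0.19 without ESC-derived replicates 1 and 2. Deviations of same-numbered libraries from their group means had correlations of 0.014, 0.038 and 0.017 for numbers 1 to 3. Those of differently numbered libraries ran from -0.041 to 0.007. Values this near 0, from 3 libraries per group, cannot settle whether the replicate numbers pair samples. With the replicate block 4 listed genes were lower, 12 were higher, and 1488 genes of all tested were lower. The losses under the block were Ifi44 (edgeR adjusted p = 0.0526), Isg20 (0.0838) and Rsad2 (0.0863), and among pathway genes Tlr3 (0.0758) and Trim25 (0.112).

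The values that changed sign all belonged to genes without a call. With library totals only they were Ifit2 at -0.13, Isg15 at -0.20, Usp18 at -0.01, Parp14 at -0.18, Trim30a at -0.13, Iigp1 at -0.11, Irgm1 at -0.19 and Irf7 at -0.15. With limma-voom they were Ifit2 at -0.09, Isg15 at -0.04, Iigp1 at -0.07 and Irf7 at -0.03, with the replicate block Ifit2 at -0.13, Isg15 at -0.06, Iigp1 at -0.11 and Irf7 at -0.02, and with upper quartile scaling Isg15 at -0.01. Leaving out a library gave ranges of Gbp11 -3.14 to 0.25, Ifit1 -0.16 to 0.17, Ifit2 -0.48 to 0.55, Iigp1 -0.58 to 0.45, Irf7 -0.40 to 0.37, Irgm1 -0.15 to 0.28, Isg15 -0.36 to 0.29, Parp14 -0.20 to 0.30, Stat2 -0.57 to 0.31 and Trim30a -0.15 to 0.28.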
